A study of Mus musculus with 6 samples.

Results

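Trp53 and 9 genes grouped here as its non-apoptotic (arrest or feedback) targets were followed in cultured mouse cerebellar granule neurons with lowered Kdm6b. The grouping is a label and does not exclude a part of these genes in cell death. The genes were taken by name from the count table (Trp53, Cdkn1a, Mdm2, Ccng1, Trp53inp1, Sesn1, Phlda3, Zmat3, Plk2 and Plk3). All 10 were among the 23366 genes listed and all 10 passed the filter on low counts, which kept 15731 genes. The cultures came from cerebella of C57BL/6 mice at postnatal day 7 and were infected with lentivirus on day 1 in vitro. Controls (n = 3) received the empty pLKO.1 vector and knockdowns (n = 3) that vector carrying a short hairpin RNA directed at Kdm6b, which encodes a histone H3 lysine 27 demethylase. The control vector carries no hairpin, the labels print the sequence of 1 hairpin, and they do not say which cultures received brain-derived neurotrophic factor.

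The transcription factor p53, encoded by Trp53, is held low in unstressed cells by Mdm2, a ubiquitin ligase whose own gene p53 activates. When DNA damage or other stress frees p53, it switches on genes that stop the cell cycle, repair DNA or restrain growth signals, and at stronger stress genes that kill the cell. In the developing cerebellum p53 is best known for removing granule neuron precursors with damaged DNA. Postmitotic neurons also express several of its targets, and some of these genes answer to other signals such as synaptic activity.

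Gene counts per library ranged from 50326298 to 88214069, so 1 read was worth 0.0112 to 0.0200 CPM (counts scaled to TMM library size). Kdm6b was at 257, 146 and 170 CPM in control replicates 1 to 3 and at 88.8, 63.3 and 79.8 CPM in knockdown replicates 1 to 3. Its log2 fold change was −1.31 (SE 0.25, edgeR adjusted p = 0.216) without the replicate number, so that fit did not call the targeted gene. With the number as a block it was −1.28 (SE 0.11, edgeR adjusted p = 0.0282). All 13 granule neuron markers were tested, with a summed level of 4676 to 6835 CPM in the control arm and 4698 to 6789 CPM in the knockdown arm. With the replicate number as a block (the second fit described below) 1 of these 13 rose, Tubb3 by 1.02 on the log2 scale (SE 0.15), and 1 fell, Etv1 by 1.48 (SE 0.18). That fit called 7.98% of all genes tested, 2.58% higher and 5.40% lower. Of 7 granule precursor markers Atoh1 was too low to test, Barhl1 (1.63) and Mycn (1.46) rose and Mfap4 (−1.65) fell in that fit. These 7 summed to 491 to 1144 CPM in the control arm and 598 to 1097 CPM in the knockdown arm. In the controls most of that sum came from the D cyclin genes Ccnd1 (102, 343 and 278 CPM) and Ccnd2 (254, 723 and 589 CPM). Both are also among the 27 cell cycle genes below, so the 2 lists are not independent. Summed over 15 pericyte and fibroblast markers, none of them at 0, the level was 13445 to 26988 CPM in the control arm and 4554 to 12377 CPM in the knockdown arm, and 8 of the 15 fell with the block. The 12 microglia markers summed to 45.3 to 151 CPM in the control arm and 14.1 to 58.6 CPM in the knockdown arm, and the 12 astrocyte and Bergmann glia markers to 1381 to 3430 and 904 to 3626 CPM. The 10 oligodendrocyte lineage markers summed to 204 to 1299 CPM in the control arm and 167 to 975 CPM in the knockdown arm, and the 8 endothelial markers to 89.7 to 163 and 70.6 to 179 CPM, with none at 0. With the block 1 microglia, 1 astrocyte or Bergmann glia and 2 oligodendrocyte lineage markers fell and 0 rose. Of the endothelial markers 0 were called. The part of these other cells in the values below was not tested. Fewer cells of a type and less RNA per cell cannot be told apart in such bulk samples.

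Trp53 and most of these targets did not pass the test, and 1 of them, Plk3, rose in the fit that pairs libraries by replicate number. In edgeR's quasi-likelihood test without the replicate number 0 of the 10 were called at an adjusted p of 0.05, as were 0.00636% of all genes tested. At an unadjusted p of 0.05 the same fit gave 1 of the 10, Plk3, against 10.6% of all genes. DESeq2 without the number called 0 of 10 (3.84% of all genes). Same-numbered libraries shared their deviations from the group means, and a second fit therefore took the number as a block. There 1 of the 10 rose and 0 fell, against 7.98% of all genes called in either direction, 2.58% higher and 5.40% lower. A share of 1 in 10 is near that background. DESeq2 with the block called 2 of the 10, Plk3 higher and Phlda3 lower, against 23.7% of all genes. The median log2 fold change with the block was −0.10 for the 10 genes and 0.02 for all genes tested. Groups did not overlap for 1 of the 10 genes, Plk3, against 16.7% of all genes (9.21% higher, 7.44% lower). Differences had 1 sign in all 3 pairs for 7 of the 10, 3 higher and 4 lower, against 60.2% of all genes.

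**Figure D1:**
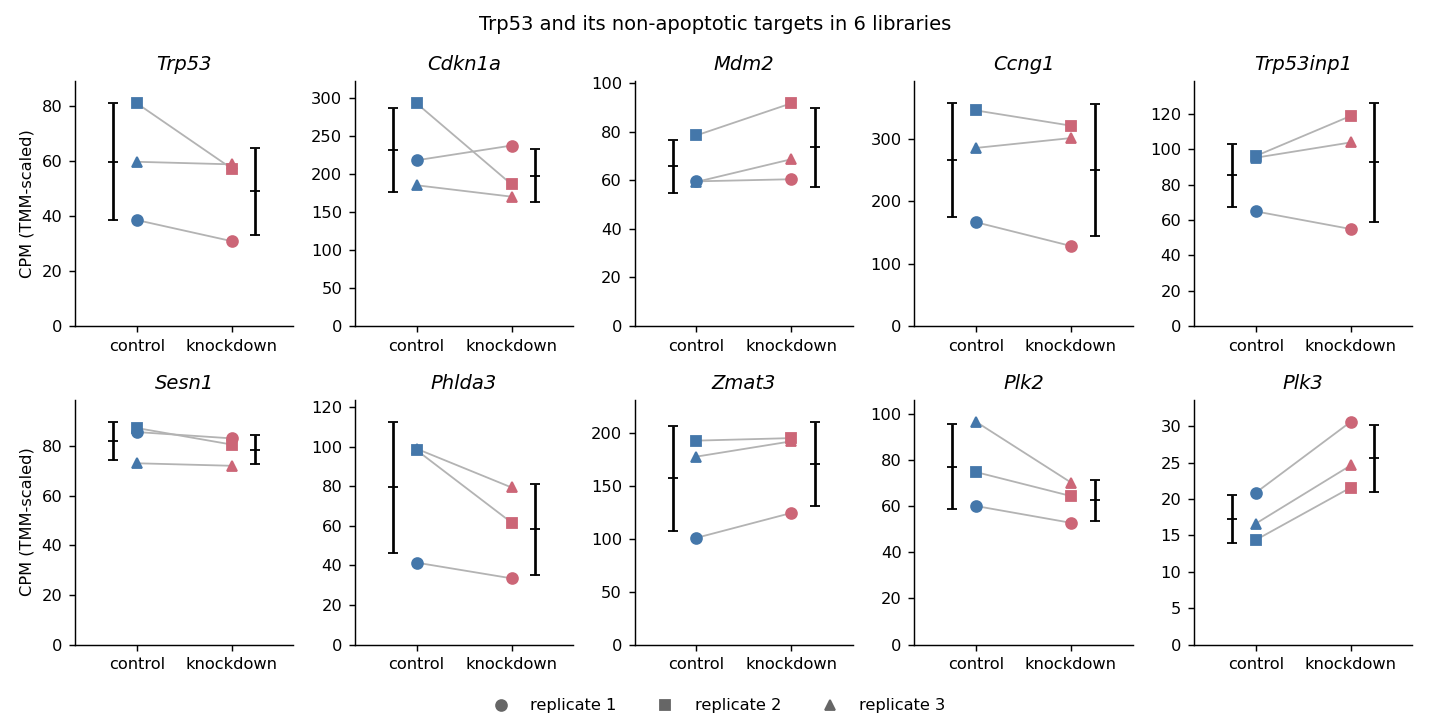
CPM (TMM-scaled, linear axes from 0) of the 10 genes in each library, with a grey line joining the control (blue) and knockdown (red) library of the same replicate number and black bars for the mean ± SD (n = 3). Plk3 is the 1 gene whose knockdown values (21.6 to 30.6 CPM) all lie above its control values (14.4 to 20.9 CPM).

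Trp53 itself was at 38.6, 81.1 and 59.8 CPM in control replicates 1 to 3 and at 30.9, 57.3 and 58.9 CPM in knockdown replicates 1 to 3. The groups overlapped, the knockdown library was the lower of each pair, and both libraries numbered 1 lay below the other 4. Its control mean was 59.8 ± 21.3 CPM (SD, n = 3), against 49.0 ± 15.7 CPM (SD, n = 3) with the hairpin. The log2 fold change was −0.29 (SE 0.35, edgeR adjusted p = 0.795) without the block and −0.28 (SE 0.11, edgeR adjusted p = 0.152) with it. The 95% interval of the fit with the block ran from −0.57 to 0.0057, so a fall of the transcript of up to that size was not separated from no change. Without control replicate 2 the log2 fold change in the fit without the block was −0.0052, and without control replicate 1 it was −0.52. In build GRCm38 the gene (ENSMUSG00000059552) occupies chr11:69580359-69591873 (plus strand). These values are of the mRNA, and p53 activity is set largely by the stability of the protein, which was not measured.

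Mdm2, the ubiquitin ligase of the central negative feedback loop, was at 59.5, 78.4 and 59.3 CPM in control libraries and at 60.4, 91.6 and 68.6 CPM in knockdown libraries. The knockdown library was the higher in each pair, while the groups overlapped. The log2 fold change was 0.15 with the block (SE 0.08, 95% interval −0.04 to 0.35, edgeR adjusted p = 0.223) and 0.16 without it (edgeR adjusted p = 0.798).

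Ccng1 encodes cyclin G1, which helps a phosphatase to activate Mdm2 and so also restrains p53. It was at 167, 346 and 286 CPM in control libraries and at 129, 322 and 302 CPM in knockdown libraries. The libraries numbered 1 were low in both arms and the pairs differed in sign (log2 differences of −0.37, −0.11 and 0.08). The log2 fold change with the block was −0.13 (SE 0.11, 95% interval −0.41 to 0.15, edgeR adjusted p = 0.421). Trp53inp1, a stress-induced protein of autophagy and of p53 phosphorylation, was at 64.9, 96.3 and 95.3 CPM in control libraries and at 54.9, 119 and 104 CPM in knockdown libraries. It too was lowest in the libraries numbered 1, and its pair differences changed sign (−0.24, 0.31 and 0.13). Its log2 fold change was 0.06 (SE 0.12, 95% interval −0.25 to 0.38, edgeR adjusted p = 0.733) with the block.

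Cdkn1a, which encodes the cyclin-dependent kinase inhibitor p21 and is the main arrest gene of the response, was at 218, 293 and 185 CPM in control libraries and at 237, 186 and 170 CPM in knockdown libraries. It was higher in the knockdown of pair 1 and lower in the other pairs (log2 differences of 0.12, −0.65 and −0.12), so its pairs disagreed the most of the 10 genes. The gene (ENSMUSG00000023067) occupies chr17:29090976-29100727 (plus strand, GRCm38). Of the sum of squares of its log2 CPM, 37.5% was explained neither by the arm nor by the number, against 0.0354% to 8.37% for the other 9. The log2 fold change was −0.22 with the block (SE 0.16, 95% interval −0.64 to 0.20, edgeR adjusted p = 0.389) and −0.23 without it (edgeR adjusted p = 0.730). Leaving replicate 2 out of the paired fit gave −0.016.

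Sesn1, a sestrin that restrains the growth kinase complex mTORC1 and supports antioxidant defence, was the steadiest of the 10. It was at 85.8, 87.4 and 73.2 CPM in control libraries and at 83.2, 80.7 and 72.2 CPM in knockdown libraries, a range of 72.2 to 87.4 CPM over all 6 libraries. Its log2 fold change was −0.06 with the block (SE 0.06, 95% interval −0.23 to 0.11, edgeR adjusted p = 0.547). With library totals alone as scaling the value was 0.011. Zmat3, a zinc finger RNA-binding protein, was at 101, 193 and 178 CPM in control libraries and at 125, 196 and 192 CPM in knockdown libraries, slightly higher in the knockdown of each pair. Its log2 fold change was 0.14 with the block (SE 0.08, 95% interval −0.07 to 0.36, edgeR adjusted p = 0.275).

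Phlda3, a protein with a pleckstrin homology domain that competes with the kinase Akt for membrane lipids, was at 41.4, 98.4 and 99.1 CPM in control libraries and at 33.5, 61.7 and 79.5 CPM in knockdown libraries. The knockdown library was the lower in each pair (log2 differences of −0.31, −0.67 and −0.32), while the groups overlapped because control replicate 1 was low. The log2 fold change was −0.43 (SE 0.10, 95% interval −0.69 to −0.17) with the block and did not pass over all genes (edgeR adjusted p = 0.0624). Without the block it was −0.45 (SE 0.43, edgeR adjusted p = 0.735), and DESeq2 with the block called it (−0.45, SE 0.13, DESeq2 adjusted p = 0.00472).

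The values of the Polo-like kinases differed in opposite directions. Plk2, an activity-induced kinase that weakens excitatory synapses during prolonged firing, was at 60.1, 74.8 and 96.6 CPM in control libraries and at 52.8, 64.4 and 70.3 CPM in knockdown libraries. The knockdown was the lower in each pair and the groups overlapped. Its log2 fold change was −0.29 with the block (SE 0.08, 95% interval −0.50 to −0.07, edgeR adjusted p = 0.0900) and −0.30 without it (edgeR adjusted p = 0.620). Plk3, a kinase induced by growth signals and by stress, was at 20.9, 14.4 and 16.6 CPM in control libraries and at 30.6, 21.6 and 24.6 CPM in knockdown libraries. The groups did not overlap, and the 3 pairs differed by nearly the same amount (log2 differences of 0.55, 0.58 and 0.57). The Plk3 mean went from 17.3 ± 3.30 to 25.6 ± 4.60 CPM (SD, n = 3), a log2 fold change of 0.57 (SE 0.08, 95% interval 0.37 to 0.77, edgeR adjusted p = 0.0321) with the block. Without the block the value was 0.57 (SE 0.21, edgeR adjusted p = 0.436). The call was also lost when any 1 pair was left out, with log2 fold changes of 0.58, 0.54 and 0.56 and edgeR adjusted p of 0.128, 0.0637 and 0.0564 without replicates 1, 2 and 3. Plk3 (ENSMUSG00000028680) occupies chr4:117128655-117133963 (minus strand, GRCm38). Its exons overlap those of Tctex1d4 on the opposite strand over 84 bases (3.32% of its exon length), and 273 bases of Cdkn1a (7.68%) overlap a gene model of uncertain status on the opposite strand. Whether the counting used strand is not known here. None of the other 8 genes shares exon sequence with another gene in GENCODE M21.

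**Figure D2:**
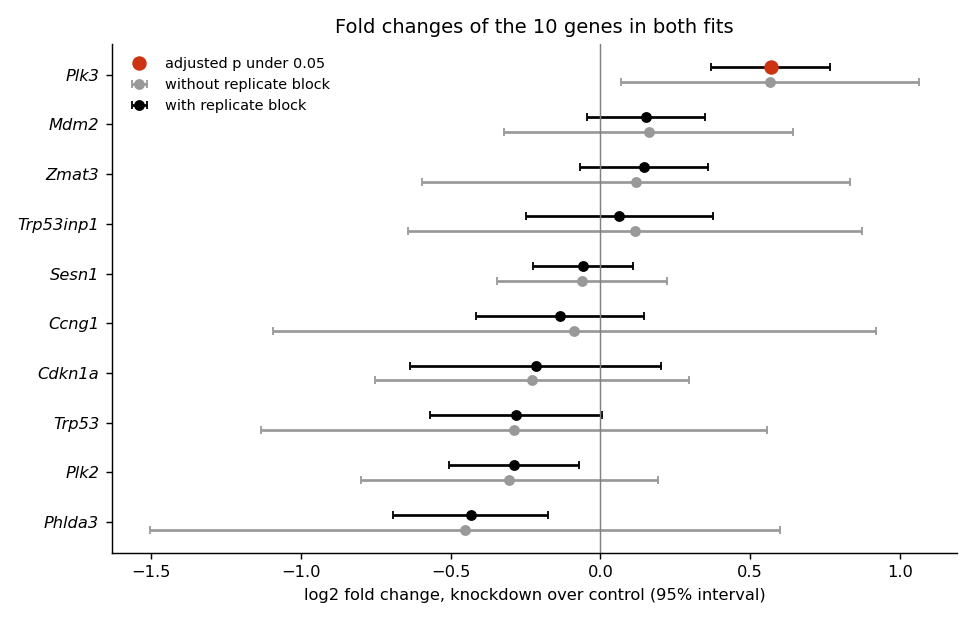
Log2 fold change (knockdown over control) of the 10 genes with 95% intervals, in grey without and in black with the replicate block. The intervals with the block exclude 0 for Plk3, Plk2 and Phlda3, and only Plk3 (red, 0.57) was called over all genes.

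Ratios of counts within a library are untouched by scaling factors, and 3 were computed after the values had been seen. The ratio of Plk3 to Plk2 counts was 0.347, 0.192 and 0.172 in controls and 0.580, 0.335 and 0.350 in knockdowns. It was higher in the knockdown of all 3 pairs, by 0.74, 0.80 and 1.03 on the log2 scale, and the groups overlapped through control replicate 1 (exact two-sided permutation p = 0.2, adjusted p = 0.3 over the 3 ratios, n = 3 per group). The ratio of Mdm2 to Trp53 counts was 1.54, 0.967 and 0.991 in controls and 1.95, 1.598 and 1.17 in knockdowns. It was also higher in all 3 pairs (log2 differences of 0.34, 0.72 and 0.23) with overlapping groups (exact two-sided permutation p = 0.2, adjusted p = 0.3). The ratio of Cdkn1a to Trp53 was higher in 1 of 3 pairs (exact two-sided permutation p = 0.9, adjusted p = 0.9). The permutation took the libraries as unpaired, so it left the replicate number out and did not test the pair differences. With 3 against 3 libraries this test cannot give a p below 0.1. It therefore could not have passed at the level used for the genes, and its p-values do not decide whether these ratios differ.

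Differences between replicate numbers were larger than those between the arms for most of the 10 genes. Over the 6 libraries the number took over 50% of the sum of squares of log2 CPM in 8 of the 10, against 63.4% of all genes tested. These shares are not scaled for degrees of freedom, of which the number has more than the arm. The share was highest in Ccng1 (95.4%), Zmat3 (93.6%) and Trp53inp1 (91.0%) and lowest in Plk3 (36.3%) and Cdkn1a (45.6%). The median share was 85.8% in the 10 genes and 62.7% in all genes tested. The arm took 63.7% of the sum of squares in Plk3 and 0.648% to 27.6% in the others. Both libraries numbered 1 lay below all 4 others for 6 of the 10 genes (Trp53, Ccng1, Trp53inp1, Phlda3, Zmat3 and Plk2), against 17.8% of all genes. In Plk3 the library numbered 1 was instead the highest of each arm.

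**Figure D3:**
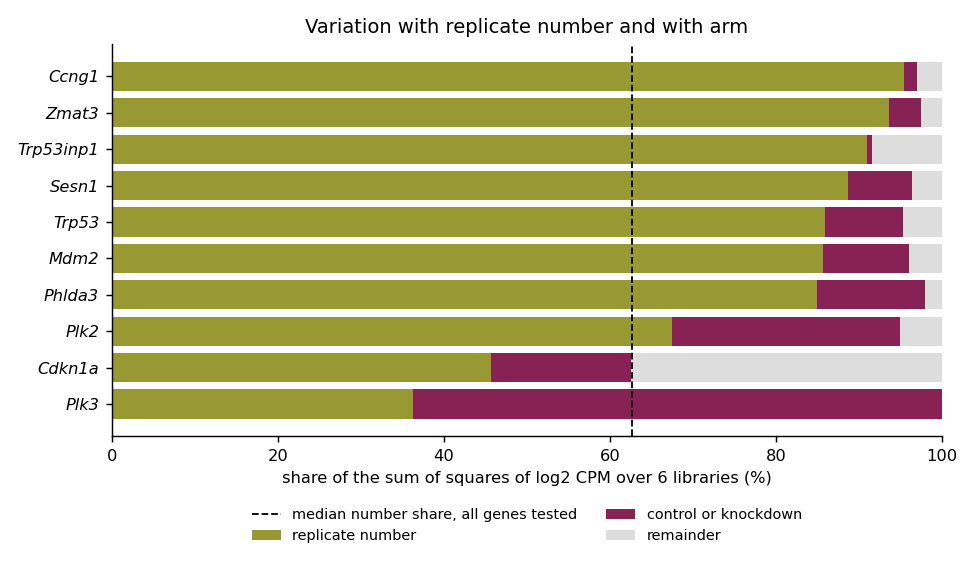
Share of the sum of squares of log2 CPM over the 6 libraries that goes with the replicate number, with the arm and with neither, for each of the 10 genes. The dashed line is the median number share of all genes tested (62.7%), which 8 of the 10 genes exceed.

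Other features differed between the same libraries. Cdkn2a, which encodes the Mdm2 inhibitor Arf and the kinase inhibitor p16 and was chosen after its values were seen, was at 0.661, 9.33 and 9.47 CPM in control libraries and at 0.324, 6.18 and 6.19 CPM in knockdown libraries. The libraries numbered 1 thus held far less of it than the others in both arms. The 27 cell cycle genes summed to 706, 1918 and 1847 CPM in control libraries and at 456, 1353 and 1773 CPM in knockdown libraries. The pericyte and fibroblast markers were at 13445, 23718 and 26988 CPM in control libraries and at 4554, 7307 and 12377 CPM in knockdown libraries. Within each arm they too were lowest in the library numbered 1. The part of proliferating or non-neuronal cells in the levels of the 10 genes was not tested.

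Per kilobase of exon the 10 genes fell into 3 tiers in the controls. Ccng1 stood at 75.8 ± 26.0, Cdkn1a at 65.3 ± 15.6 and Phlda3 at 51.1 ± 21.2 CPM per kb (SD, n = 3), with overlapping ranges. The lowest control value of Phlda3 lay above the highest of Sesn1, which stood at 20.6 ± 1.96 CPM per kb (SD, n = 3). Plk2 (17.2), Trp53 (14.8), Zmat3 (13.8), Trp53inp1 (13.2) and Mdm2 (12.9 CPM per kb) followed, and no neighbours in that order were separate. Plk3 was the lowest at 6.83 ± 1.30 CPM per kb (SD, n = 3), with all control values below those of Mdm2. In the knockdowns the first 4 places and the last were held by the same genes. Plk3 was then at 10.1 ± 1.82 CPM per kb (SD, n = 3) and overlapped its neighbour Trp53 at 12.1 ± 3.89 CPM per kb (SD, n = 3). The exon lengths come from GENCODE M21, not from the annotation used for counting, and they count all exons of a gene whether or not these neurons use them.

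**Figure D4:**
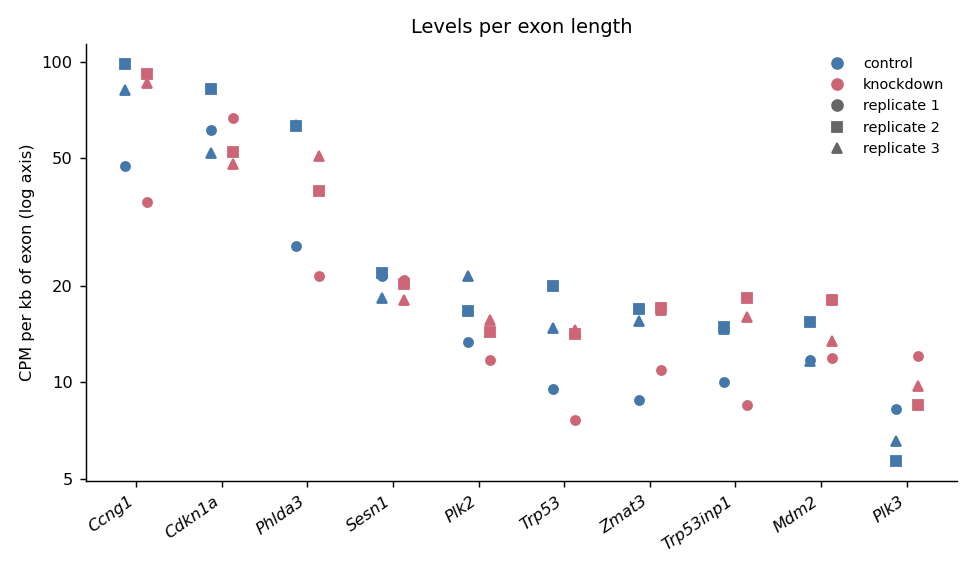
CPM per kb of exon (log axis) of the 10 genes in each library, ordered by the control mean, controls in blue and knockdowns in red. Ccng1, Cdkn1a and Phlda3 form the highest tier in both arms, and Plk3, the lowest, moves from 6.83 to 10.1 CPM per kb.

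The p53 half-site, a run of 10 bases that occurs in pairs where p53 binds DNA, was searched in the RefSeq windows of 300 bases around gene starts (build GRCm38.p6, 250 bases before to 50 after). Windows were found for 8 of the 10 genes, 10 windows in all. The half-site is 3 purines, C, a pair of A or T, G and 3 pyrimidines, and it reads the same on both strands. It occurred in 5 of the 10 windows, and in 8.36% of the 32851 windows of all genes. These 5 are shown because they carry at least 1 half-site, read on the strand of the gene with the half-sites in capitals. A single half-site is not the pair that p53 binds. Positions are those of the first base of the half-site, with the start base as 1. The windows are Cdkn1a at −73 and −51 of its upstream start (chr17:29090896-29090947, plus strand), Mdm2 at −186 (chr10:117710925-117710954, minus strand), Ccng1 at −185 (chr11:40755452-40755481, minus strand), Trp53 at −75 (chr11:69580274-69580303, plus strand) and Sesn1 at −173 of the downstream of its starts (chr10:41887256-41887285, plus strand).
Cdkn1a: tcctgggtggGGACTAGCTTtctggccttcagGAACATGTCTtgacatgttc
Mdm2: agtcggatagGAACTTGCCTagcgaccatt
Ccng1: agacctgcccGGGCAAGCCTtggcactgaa
Trp53: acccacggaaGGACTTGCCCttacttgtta
Sesn1: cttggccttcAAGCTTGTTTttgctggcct

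The Cdkn1a window was the 1 member window with 2 half-sites, which 0.359% of all windows hold. The 10 bases that follow its second half-site match the same consensus at 9 of 10 positions. None of the 5 genes with a half-site in a window passed the test, and the windows of Phlda3, Plk2 and Plk3 hold none. Sites farther from the start or within introns lie outside these windows, so the absence of these letters says nothing of p53 binding. The part of the half-sites in the values was not tested.

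The 10 windows were also searched for TGACG on either strand (CGTCA), the core of the site for the activity-regulated factor CREB. It occurred in 4 of them, with 1 match each for Mdm2 and for the downstream start of Sesn1. The stretches of the kinases Plk2 and Plk3 are shown because their values differed in opposite directions. The Plk3 window holds 2 matches, at −132 and −63, and the Plk2 window 3, at −62, −59 and 22, the first and second of which overlap and spell the palindrome TGACGTCA. At least 1 match occurs in 20.8% of all windows and at least 2 matches in 5.01%. The stretches are chr4:117134012-117134105 (minus strand) for Plk3 and chr13:110394972-110395079 (plus strand) for Plk2, with the matches in capitals.
Plk3: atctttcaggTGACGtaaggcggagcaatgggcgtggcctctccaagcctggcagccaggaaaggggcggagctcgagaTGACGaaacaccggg
Plk2: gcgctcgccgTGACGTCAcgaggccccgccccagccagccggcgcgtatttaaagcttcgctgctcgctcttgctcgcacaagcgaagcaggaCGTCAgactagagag
Both windows hold the motif, and its part in the values of Plk3 and Plk2 was not tested.

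Genes around p53 were counted in lists beside the 10, with the calls of the fit with the block set against the 7.98% of all genes it called (2.58% higher, 5.40% lower). No list as a whole was tested. Of 22 family members and regulators 2 rose and 0 fell with the block (median log2 fold change −0.13, against 0.02 for all genes), a share of calls near that of all genes. These were Trp53bp1, a scaffold at DNA breaks that binds p53 (94.1 ± 15.04 to 145 ± 23.6 CPM, SD, n = 3; edgeR adjusted p = 0.0498), and Trp53bp2, which encodes the p53-binding protein ASPP2 (43.5 ± 6.55 to 66.1 ± 4.68 CPM, SD, n = 3; edgeR adjusted p = 0.0428). For both genes all knockdown values lay above all control values. Mdm4, the partner of Mdm2 and named after its values were seen, was lower in every knockdown library (41.0 to 48.1 CPM, against 51.1 to 59.0 CPM) and did not pass (−0.28, SE 0.07, edgeR adjusted p = 0.0649).

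Of 30 genes listed as other non-apoptotic targets 2 rose and 1 fell (median 0.0092). Whether p53 acts on the listed genes in these neurons was not tested. The antiproliferative gene Btg2 rose from 29.7, 40.2 and 30.1 to 41.3, 65.8 and 46.3 CPM (log2 fold change 0.60, SE 0.08, edgeR adjusted p = 0.0319). Ccng2, the paralog of Ccng1, rose by 0.48 (SE 0.08, edgeR adjusted p = 0.0428), and the autophagy gene Dram1 fell by 1.17 on the log2 scale (SE 0.15, edgeR adjusted p = 0.0314). Of 17 genes listed as apoptotic targets 3 rose and 1 fell (median 0.02). Those that rose were the BH3-only genes Hrk (1.62, SE 0.23), Bbc3 (0.54, SE 0.08) and Pmaip1 (0.77, SE 0.12), and the 1 that fell was Siva1 (−1.11, SE 0.12; edgeR adjusted p from 0.0282 to 0.0403 among the 4). The groups overlapped for Ccng2, Dram1, Bbc3 and Pmaip1 and did not for Btg2, Hrk and Siva1. Without the block no gene of these lists passed. With the block, leaving out 1 pair leaves 4 libraries, and the genes called in the whole table then numbered 0 without replicate 1, 53 without replicate 2 and 1272 without replicate 3.

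Among 12 tested paralogs of the 10 genes 2 rose and 1 fell (median 0.06), and 1 of those that rose is Ccng2, already counted above. Trp53inp2, the paralog of Trp53inp1, went from 211 ± 8.06 to 286 ± 9.32 CPM (SD, n = 3), a rise of 0.44 on the log2 scale (SE 0.08, edgeR adjusted p = 0.0431). Cdkn1c, which encodes the kinase inhibitor p57 and is a paralog of Cdkn1a, fell from 58.5 ± 6.27 to 28.2 ± 9.40 CPM (SD, n = 3; −1.09, SE 0.21, edgeR adjusted p = 0.0483). Cdkn1b, the other listed paralog of Cdkn1a and named after its values were seen, was higher in the knockdown of each pair. It did not pass (0.32, SE 0.11, edgeR adjusted p = 0.121). Cdkn1c was the 1 of 7 other cyclin-dependent kinase inhibitors that fell, with 0 rising (median −0.54). Differences between these paralogs and the genes they resemble were not tested.

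Of 27 cell cycle genes, many of which p53 and p21 repress, 3 fell and 0 rose with the block, against 5.40% of all genes that fell. These were Rrm2 (−2.70, SE 0.30), Mki67 (−1.12, SE 0.20) and Mcm5 (−1.08, SE 0.20; edgeR adjusted p from 0.0282 to 0.0469). The list's median was −0.72 with the block and −0.45 without it. Its median log2 difference was −1.21 in pair 1, −0.90 in pair 2 and −0.022 in pair 3, so the third pair showed next to none. Of 24 activity-induced genes 2 fell and 0 rose (median −0.34), which is near the share of all genes called. These were the AP-1 subunit gene Fosl2 (−0.78, SE 0.14) and the activin subunit gene Inhba (−0.70, SE 0.13; edgeR adjusted p of 0.0452 and 0.0486). Within each arm the summed cell cycle level was lowest in the library numbered 1, as was that of the pericyte and fibroblast markers. Across the arms control replicates 2 and 3 lay above every knockdown library in both sums, and knockdown replicate 1 was lowest in both. The order differed for control replicate 1, which held 706 CPM of cell cycle genes and 13445 CPM of these markers. Knockdown replicate 2 held 1353 and 7307 CPM, and knockdown replicate 3 held 1773 and 12377 CPM. The part of such cells in the cell cycle level was not tested.

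**Figure D5:**
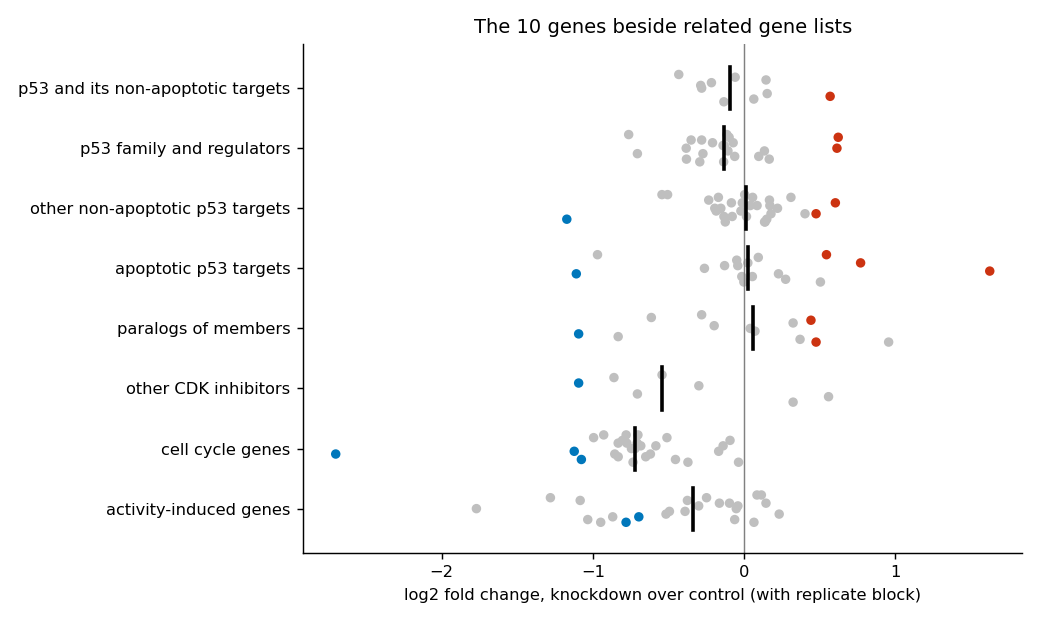
Log2 fold change in the paired fit, knockdown over control, for every tested gene of the 8 lists, with list medians as black bars; red (higher) and blue (lower) mark genes called at an adjusted p of 0.05. The medians of the 10 genes and of the 4 nearest lists lie between −0.13 and 0.06, and that of the cell cycle genes at −0.72.

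By pattern over the 6 libraries, among the 11781 genes whose mean reached 5 CPM, those most like Trp53 in log2 CPM were Mkl2 (Pearson r = 0.997), Wdhd1 (0.996) and Umps (0.995). Mkl2 was at 27.3, 48.9 and 38.8 CPM in control libraries and at 23.2, 38.8 and 36.9 CPM in knockdown libraries, low in the libraries numbered 1 as Trp53 was. The genes most like Cdkn1a were Fem1c (0.994), 2010111I01Rik (0.992) and Snap25 (0.989). Snap25, a synaptic vesicle fusion protein, was at 734, 1285 and 494 CPM in control libraries and at 849, 596 and 432 CPM in knockdown libraries, highest in control replicate 2 as Cdkn1a was. These are the highest of many correlations over 6 libraries that share arm, number and depth, and are given as a description.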

How the data were processed

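Stranded mRNA libraries (50 bp single-end reads, per the labels' protocols) of 3 control and 3 knockdown cultures were deposited by the authors as whole-number read counts per gene, not normalized. The submitters' processing notes name Trimmomatic, TopHat2, HTSeq, edgeR and DESeq2 with build mm9; their versions, the annotation and the strand setting are not known here. Tallies that name no gene (reads outside genes 12.1% to 15.0% of all counts, ambiguous reads 0.406% to 0.509%, reads not uniquely aligned 16.0% to 19.3%) entered neither library sizes nor tests. Separate cultures per replicate are not stated in the labels, and p-values then reflect only the spread among these samples, which may be technical. No replicates were near-identical (chi-square over degrees of freedom 174 to 381 between libraries of a group).

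The filter was filterByExpr (minimum count 10, minimum total 15), the scaling TMM, and the quasi-likelihood F test of edgeR 4.0.16 (R 4.3.3) was adjusted over all 15731 genes by the Benjamini-Hochberg method at 0.05. Standard errors were derived from the fold change and its F value, and 95% intervals use the fit's degrees of freedom. The main design has no replicate term. Deviations from the group means correlated across genes at 0.772, 0.709 and 0.701 between libraries of the same number and at −0.532 to −0.135 between others; the pairing therefore comes from these data, and the fit with the number as a block is given beside the main one. Shares of variation are sums of squares of log2 CPM (prior count 2). Exon lengths and overlaps are from GENCODE M21 (GRCm38), matched by name, with no coordinates carried over from mm9; promoter sequences are from RefSeq (GRCm38.p6). The fits were tested on simulated data. Alternatives were other scaling factors, other filters, DESeq2 1.42.0, limma-voom (limma 3.58.1), the block, and leaving out each library or pair.

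The 10 genes and all lists were chosen with earlier results of these data known. Named beside the 10 are Kdm6b, up to 3 called genes per list with the smallest p in the fit with the block, and for Trp53 and Cdkn1a the 3 genes most alike. In the apoptotic list Pmaip1 is named beyond these 3. Named from the marker lists are the called granule neuron and granule precursor markers, the untested Atoh1, and Ccnd1 and Ccnd2 for their levels. Cdkn2a, Mdm4 and Cdkn1b were added after their values were seen.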

Additional observations from a re-analysis of the deposited data

How the results depend on the processing

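Over all genes 1 was called without the block, and also with RLE or upper-quartile factors, no filter, the filter at a mean of 5 CPM or limma-voom; library totals alone gave 0, leaving out any 1 library 0 and DESeq2 568. The replicate block gave 1256 (406 higher, 850 lower), RLE factors 1342, upper-quartile factors 1350, library totals alone 1276 (723 higher, 553 lower), no filter 1598, the added filter at 5 CPM 1439, limma-voom 1394 and DESeq2 3440, and leaving out 1 pair gave 0 (without replicate 1), 53 (without replicate 2) or 1272 (without replicate 3). Of the 10 genes, 0 were called in any fit without the block and 1, Plk3, with it (log2 fold change 0.55 to 0.64 over the scaling factors, filters and tools), except that DESeq2 with the block called 2 and leaving out any 1 pair gave 0. No scaling moved the median of all genes by over 0.1 on the log2 scale (0.00 to 0.09).

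Signs turned for 5 of the 10 genes. When 1 library was left out of the fit without the block, the log2 fold change of Mdm2 ranged from −0.042 (without knockdown replicate 2) to 0.31, of Trp53inp1 from −0.12 (without knockdown replicate 2; −0.05 without control replicate 1) to 0.38, of Zmat3 from −0.12 (without control replicate 1; −0.0052 without knockdown replicate 2) to 0.30 and of Ccng1 from −0.34 to 0.23 (without knockdown replicate 1; 0.15 without control replicate 2). Sesn1 turned to 0.0033 with library totals alone and to 0.011 with these and the block, and Trp53inp1 to −0.074 with the block without replicate 2. Leaving out 1 library or pair moved Trp53 from −0.52 (without control replicate 1) to −0.0052 (without control replicate 2), Cdkn1a from −0.39 (with the block, without replicate 1) to −0.016 (with the block, without replicate 2), Phlda3 from −0.76 (without control replicate 1) to −0.17 (without knockdown replicate 1), Plk2 from −0.46 (without control replicate 1) to −0.12 (without control replicate 3) and Plk3 from 0.42 (without knockdown replicate 1) to 0.72 (without control replicate 1). The smallest count of the 10 genes in a library was 718.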
